A study of Homo sapiens with 8 samples.

Results

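The 39 genes described here encode the kinesin superfamily motors other than KIF23, among 17309 genes with a row in the count table. They are all genes whose symbol is KIF followed by a number and an optional letter, with KIFC1, KIFC2 and KIFC3, and without KIF23 and KIF20A. By known function, 11 act in spindle assembly, chromosome movement or cytokinesis and are called mitotic, 17 carry vesicles, organelles or ciliary cargo and are called transport, and 11 have ciliary, signalling, mixed or little known roles and are kept apart. Of these, 10 mitotic, 16 transport and 9 other kinesins passed the filter on low counts, which makes 35 of the 13619 genes tested. KIF4B, KIF5C, KIF19 and KIF25 did not pass. KIF2B was not analysed here.

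SW480 and DLD-1 are established cell lines grown from human colorectal cancers, and each was infected with lentivirus carrying a control hairpin (shControl) or a hairpin against NAT10 (shNAT10), the enzyme that writes N4-acetylcytidine on RNA. Each of the 4 groups had 2 libraries, labelled as biological replicates: SW480 shControl, SW480 shNAT10, DLD-1 shControl and DLD-1 shNAT10. No labelled time, dose or other agent separates the groups, and the labels call both lines wild type. All groups grew in DMEM with serum. The study made stable lines with 2 NAT10 hairpins, the labels do not say which was sequenced, and whether its cells grew from 1 clone was not stated in the sources used here. The question for these genes was whether kinesins other than KIF23, the motor the study followed, also changed when NAT10 was lowered.

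Kinesins are motor proteins that use ATP to walk along microtubules or to take microtubule ends apart. The mitotic members slide spindle microtubules, align chromosomes and build the midbody, and dividing cells make most of them in the G2 and M phases. The transport members move vesicles, mitochondria, endosomes and ciliary components, and several of them, such as KIF1A and KIF5A, are known mainly from neurons.

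The promoters of the mitotic kinesins are shown first, because most of them share short sequence elements that most transport kinesins lack in the same window. A promoter sequence, from 250 bases before to 50 after the annotated start, was at hand in RefSeq (GRCh38.p14) for 31 of the 39 genes. The cell cycle genes homology region (CHR) is an element known from genes expressed late in the cell cycle, and it was searched on both strands as TTTGAA. A variant known from the same genes was searched too and counted as a match, spelled TTCGAA. The CCAAT box was searched on both strands by the letters of its name. A stretch read by both motifs was counted under each. Below are the 66 bases around the CHR match of the 9 tested mitotic kinesins that hold one, written in the direction of the gene with CHR matches and CCAAT boxes in capitals. A match on the opposite strand shows as its reverse complement.
KIF11, chr10:92593057-92593122, plus strand: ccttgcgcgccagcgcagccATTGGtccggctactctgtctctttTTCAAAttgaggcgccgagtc
KIF14, chr1:200620730-200620795, minus strand: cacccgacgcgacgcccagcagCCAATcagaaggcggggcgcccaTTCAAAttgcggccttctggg
KIF15, chr3:44761714-44761779, plus strand: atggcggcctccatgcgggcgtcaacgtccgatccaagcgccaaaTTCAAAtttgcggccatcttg
KIF18A, chr11:28108146-28108211, minus strand: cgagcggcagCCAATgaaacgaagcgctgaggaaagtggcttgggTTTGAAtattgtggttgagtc
KIF18B, chr17:44947751-44947816, minus strand: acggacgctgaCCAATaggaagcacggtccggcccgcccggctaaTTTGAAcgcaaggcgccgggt
KIF20B, chr10:89701569-89701634, plus strand: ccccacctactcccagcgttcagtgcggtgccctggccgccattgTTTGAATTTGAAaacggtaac
KIF22, chr16:29790679-29790744, plus strand: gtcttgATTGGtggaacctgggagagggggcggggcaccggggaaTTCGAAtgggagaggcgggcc
KIF4A, chrX:70290025-70290090, plus strand: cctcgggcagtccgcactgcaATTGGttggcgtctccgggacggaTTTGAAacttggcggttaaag
KIFC1, chr6:33391782-33391847, plus strand: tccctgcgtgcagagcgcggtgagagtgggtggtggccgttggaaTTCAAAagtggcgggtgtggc

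These matches sat close to the start, with the first base from -35 in KIF15 to 24 in KIF20B, counted from 0 at the start base. KIF22 has a second annotated start, from which the same match lies at -244. In all, 9 of the 10 tested mitotic kinesins held a CHR match, against 1 of 11 transport and 1 of 7 other kinesins that were tested and had a promoter sequence. The transport gene was KIF5B and the other gene KIF24, a motor of the centriole. Over all tested genes with a promoter, 1726 of 11037 (15.6%) held a match. CCAAT boxes stood in 8 of the 10 mitotic promoters, against 3 of 11 transport and 3 of 7 other promoters and 42.8% of all tested genes. The KIF5B match had its first base at -140.
KIF5B, chr10:32056545-32056610, minus strand: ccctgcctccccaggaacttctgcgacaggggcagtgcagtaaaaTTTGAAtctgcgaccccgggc

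KIF2C was the tested mitotic kinesin whose 300 bases held neither motif, so they carry no capitals. These letters are a description of the windows, and no binding was measured.
KIF2C, chr1:44739587-44739886, plus strand: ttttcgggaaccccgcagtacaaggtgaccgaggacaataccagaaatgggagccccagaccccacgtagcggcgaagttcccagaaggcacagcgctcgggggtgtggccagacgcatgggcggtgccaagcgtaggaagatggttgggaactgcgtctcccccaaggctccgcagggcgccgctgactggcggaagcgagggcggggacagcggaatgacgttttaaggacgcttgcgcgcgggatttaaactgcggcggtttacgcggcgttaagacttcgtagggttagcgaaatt

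Library totals ran from 15147805 to 17271336 estimated counts, and levels are given as CPM, counts scaled to a common library size after TMM normalization. Replicates had a biological coefficient of variation of 0.0585. NAT10 read 122 and 122 CPM in SW480 shControl and 23.6 and 27.9 CPM in SW480 shNAT10, and 121 and 121 against 59.0 and 54.4 CPM in DLD-1. Epithelial markers summed to between 3169 and 3928 CPM in SW480 and between 7481 and 8074 CPM in DLD-1 libraries. Leukocyte markers, of which 2 of 3 had a row, summed to between 17.3 and 30.9 CPM. Fibroblast markers stayed at or under 4.80 CPM and endothelial markers at or under 1.58 CPM in every library. In bulk RNA, fewer cells of a kind, such as cells in mitosis, and less RNA per cell cannot be told apart.

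With NAT10 lowered in SW480 cells, the kinesins leaned towards lower values and 1 of them passed the test, while 10 of 35 had an unadjusted p under 0.05 by edgeR, against 19.3% of all genes. Of the kinesins 24 of 35 had a fold change below 1, against 52.2% of all genes. KIF3A, the motor subunit of kinesin-2 that drives transport along the cilium, read 31.8 and 34.2 CPM in shControl and 23.5 and 25.8 CPM in shNAT10 (chr5:132688812-132737546). Both shNAT10 libraries lay below both controls. The log2 fold change was -0.42 (standard error 0.0998, adjusted p = 0.0495, edgeR), a level 0.746 times the control. That adjusted p is close to the threshold, and over 18 alternatives that gave one it ranged from 0.00293 to 0.470, with 4 below 0.05. In DLD-1 KIF3A read 23.0 and 26.1 CPM against 21.0 and 24.0 CPM, and the groups overlapped.

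KIF5B (chr10:32009015-32056425), the heavy chain of the conventional kinesin that most cells use for vesicles and organelles, was the most abundant kinesin in CPM. It read 332 and 351 CPM in SW480 shControl and 248 and 295 CPM in SW480 shNAT10, again without overlap. The log2 fold change was -0.33 (standard error 0.0810, adjusted p = 0.0574, edgeR), which missed the adjusted threshold. By DESeq2 it was the 1 kinesin past that threshold in SW480 (adjusted p = 0.0137), where KIF3A was given no adjusted p, and by limma on FPKM there were 0. Over 19 alternatives the adjusted p of KIF5B ranged from 0.00132 to 0.472. In DLD-1 it read 239 and 265 CPM against 245 and 250 CPM, and the groups overlapped.

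By the limits the study named (fold change above 1.2 or below 0.83 with unadjusted p under 0.05), 5 kinesins were lower in SW480 shNAT10 and 0 were higher. Of all genes tested, 4.98% were lower and 4.1% higher by these limits, and 1.68% passed the adjusted threshold in either direction. The 5 were KIF3A, KIF5B, KIF21B, KIF14 and KIF27. KIF21B, which restrains microtubule growth and carries receptors, read 32.6 and 38.1 CPM against 27.0 and 29.4 CPM (log2 fold change -0.33, standard error 0.102). KIF14, which works with citron kinase in cytokinesis, read 44.6 and 52.2 CPM against 32.8 and 44.7 CPM (log2 fold change -0.32, standard error 0.127). Its higher shNAT10 library reached the range of the controls, and when curated transcripts alone were counted the KIF14 value turned to 0.86. The curated NM_014875.3 and NM_001305792.1 were assigned only 14.1% and 1.8% of KIF14 counts in SW480 shControl. In SW480 shNAT10 their shares were 25.9% and 10.3%, and such divisions of reads are estimates. KIF27, a relative of the Hedgehog and ciliary kinesin KIF7, read 7.03 and 5.68 CPM against 4.65 and 5.15 CPM from 79 to 120 counts a library (log2 fold change -0.38, standard error 0.161).

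**Figure D1:**
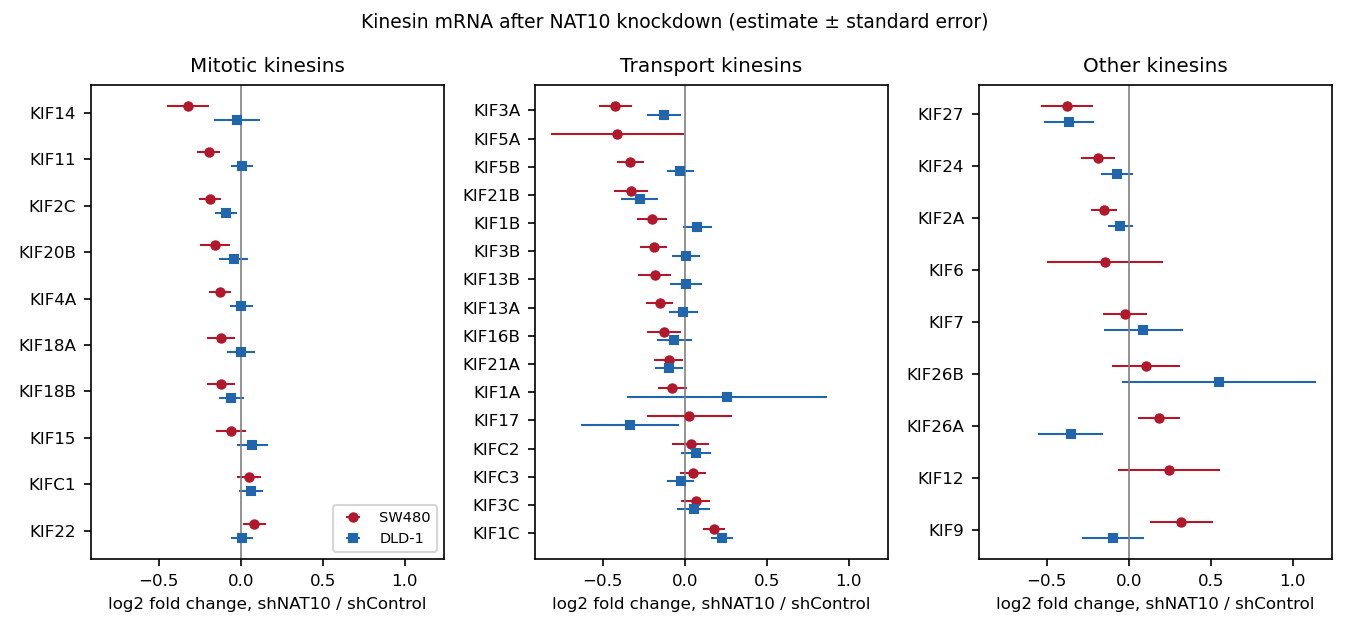
Log2 fold change of shNAT10 against shControl (horizontal axis) for the tested kinesins, as points with bars of 1 standard error from edgeR, red circles for SW480 and blue squares for DLD-1, in panels for mitotic, transport and other kinesins. Most SW480 points lie left of 0, while DLD-1 points of the mitotic class lie close to 0. DLD-1 points of KIF5A, KIF6 and KIF12, which had 0 counts in both DLD-1 shControl libraries, are not drawn.

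The mitotic motors, too, leaned towards lower values in SW480 shNAT10. Of the 10 tested, 8 lay below and 2 above 0 in SW480, with a median log2 fold change of -0.12, and 0 passed the adjusted threshold by edgeR, by DESeq2 or by limma on FPKM, 3 having an unadjusted p under 0.05 by edgeR. The transport kinesins had a median of -0.14 with 11 of 16 below 0, and the other kinesins a median of -0.02 with 5 of 9 below 0. Over all genes tested the median was -0.01. Mitotic and transport kinesins therefore had similar medians in SW480, and no test was made of the difference.

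KIF2C, a microtubule depolymerase that corrects faulty chromosome attachments, was the mitotic kinesin with the highest mean CPM. It read 189 and 176 CPM in SW480 shControl and 154 and 167 CPM in SW480 shNAT10. KIF11, the motor that pushes spindle poles apart, read 124 and 121 CPM against 101 and 113 CPM. KIF4A, a chromosome-bound motor that also shapes the central spindle, read 144 and 139 CPM against 124 and 135 CPM. Each of these 3 had both shNAT10 libraries below both controls, with log2 fold changes of -0.19, -0.19 and -0.13 that did not pass the adjusted threshold. KIF22, a second chromosome-bound motor, went the other way in value and read 97.2 and 92.3 CPM against 104 and 96.9 CPM, where the groups overlapped.

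Among the abundant transport motors, KIF1B, which carries mitochondria and vesicle precursors, read 78.4 and 87.9 CPM against 67.6 and 76.9 CPM in SW480. KIF3B, the partner of KIF3A in kinesin-2, read 114 and 125 CPM against 96.3 and 113 CPM. Neither overlapped between the groups, and neither passed the adjusted threshold, with log2 fold changes of -0.20 and -0.19. In DLD-1 KIF1B read 107 and 125 CPM against 121 and 123.4 CPM, and KIF3B 80.5 and 85.1 against 84.1 and 82.5 CPM, with overlap in both. In all, 13 of 35 kinesins had both SW480 shNAT10 libraries below both controls, against 26.1% of all genes, and 3 had both above, against 21.7%. The 13 were KIF2C, KIF4A, KIF11 and KIF18B of the mitotic class, KIF1B, KIF3A, KIF3B, KIF5B, KIF13A, KIF13B and KIF21B of the transport class, and KIF2A and KIF27. The 3 were KIF1C, KIF9 and KIF26A.

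These SW480 values depended on single libraries. The shNAT10 replicate 1 library lay farther from the controls than replicate 2 for most kinesins, with median log2 values against the control mean of -0.23 and -0.05 over the 32 kinesins with counts in DLD-1 controls. Without SW480 shNAT10 replicate 1, 0 kinesins passed the adjusted threshold by edgeR, 1 passed the limits and the mitotic and transport medians were -0.04 and -0.06. Without SW480 shNAT10 replicate 2, 12 passed the adjusted threshold, 11 lower and 1 higher, but 16.0% of all genes then did, and the medians were -0.21 and -0.26. Without SW480 shControl replicate 1 the mitotic and transport medians were -0.15 and -0.15, and without replicate 2 they were -0.11 and -0.12. Fewer of all genes, too, passed the adjusted threshold without SW480 shNAT10 replicate 1 or without either SW480 control. The kinesin count by the limits also moved without SW480 shControl replicate 2. Each of these fits leaves 1 library in a group, and no share over all genes is at hand for the limits. Their counts are therefore no result about kinesins alone.

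Values moved with the GC content of the transcripts in some libraries. Of the kinesins past the limits in SW480, KIF3A, KIF5B, KIF14 and KIF27 have longest transcripts of 37.8% to 39.9% GC, and KIF21B one of 59.7%. KIF20B, KIF18A and KIF11, with 34.2%, 37.0% and 38.3%, passed neither call rule with all libraries. Their SW480 log2 fold changes were -0.16, -0.12 and -0.19. Across the 32 kinesins, Spearman's rho between GC content and the log2 value was 0.678 in SW480 shNAT10 replicate 1 and 0.255 in replicate 2. Across all 13471 tested genes with a known GC content it was 0.483 and 0.137, so the same relation stood in the whole library. In DLD-1 shNAT10 replicate 1 rho was 0.451 over the kinesins and 0.361 over all genes, with a kinesin median of -0.011, and in DLD-1 shNAT10 replicate 2 it was -0.236 and -0.027. These are correlations across genes of 1 library, and genes are not independent replicates. With a correction for GC content, 0 kinesins passed the adjusted threshold in SW480 by edgeR, where 2.5% of all genes did. Of the kinesins 2 passed the limits, and 27 of 35 lay below 0. The mitotic median was then -0.05, while the transport median stayed at -0.14. KIF3A had a log2 fold change of -0.31 under that correction (adjusted p = 0.066, edgeR). The part of GC content in the differences was not tested beyond this.

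**Figure D2:**
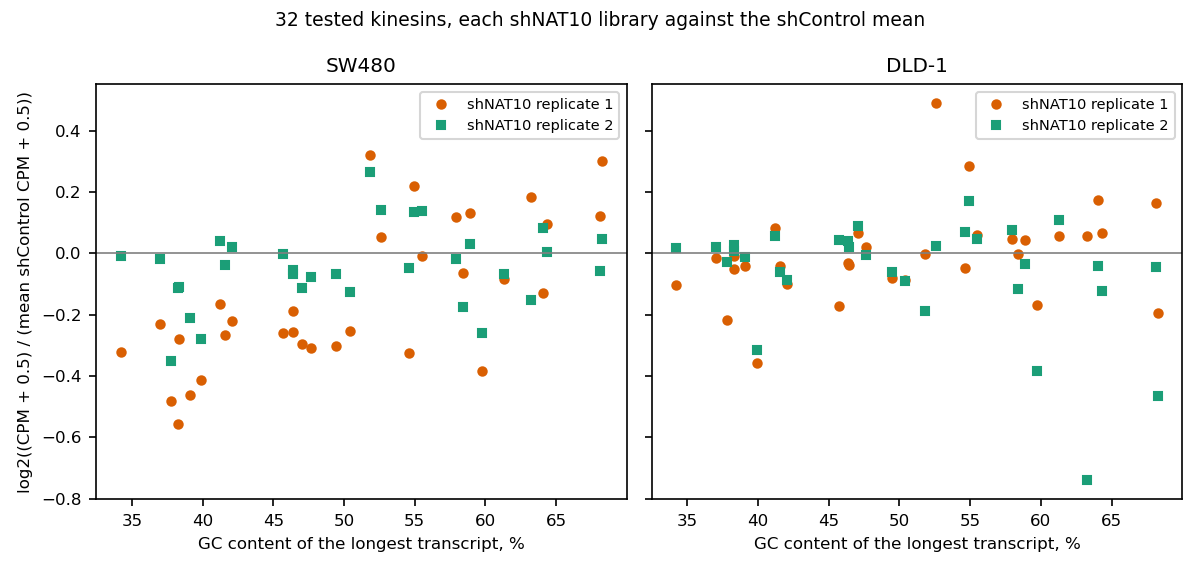
Log2 of CPM in each shNAT10 library over the mean of the shControl libraries, with 0.5 CPM added to each (vertical axis), against the GC content of the longest transcript in percent (horizontal axis), for 32 tested kinesins in SW480 and DLD-1, circles for replicate 1 and squares for replicate 2. In SW480, replicate 1 values rise from left to right (rho 0.678), and replicate 2 values lie nearer to 0.

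In DLD-1 cells no kinesin passed the adjusted threshold: 0 of 35 by edgeR, by DESeq2 and by limma on FPKM, against 0.0147% of all genes by edgeR, and 3 had an unadjusted p under 0.05, against 5.96% of all genes. By the limits 2 were lower and 0 higher, where 1.34% of all genes were lower and 1.34% higher. The 2 were KIF27, at 7.63 and 6.99 CPM in shControl and 5.60 and 5.78 CPM in shNAT10, and KIF21B, at 24.6 and 22.9 CPM against 21.1 and 18.1 CPM. Neither overlapped between the groups, and their log2 fold changes were -0.36 (standard error 0.155) and -0.27 (standard error 0.111). The count by the limits moved without either DLD-1 control library or without DLD-1 shNAT10 replicate 2. No share over all genes is at hand for those fits.

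The mitotic motors lay between -0.09 and 0.07 on the log2 scale in DLD-1, with a median of 0.00, and the transport median was -0.00. KIF11 read 187 and 188 CPM in shControl and 186 and 191 CPM in shNAT10. KIF2C read 151 and 150 CPM against 142 and 142 CPM, KIF22 149 and 149 against 154 and 146 CPM, and KIF4A 73.8 and 74.6 against 72.6 and 76.4 CPM. Of these only KIF2C had groups that did not overlap. KIF14 read 25.3 and 30.5 CPM against 26.9 and 28.0 CPM. In all, 6 kinesins had both DLD-1 shNAT10 libraries below both controls, against 18.2% of all genes, and 2 had both above, against 17.7%. The first were KIF2A, KIF2C, KIF21A, KIF21B, KIF26A and KIF27, and the second KIF1C and KIFC1.

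**Figure D3:**
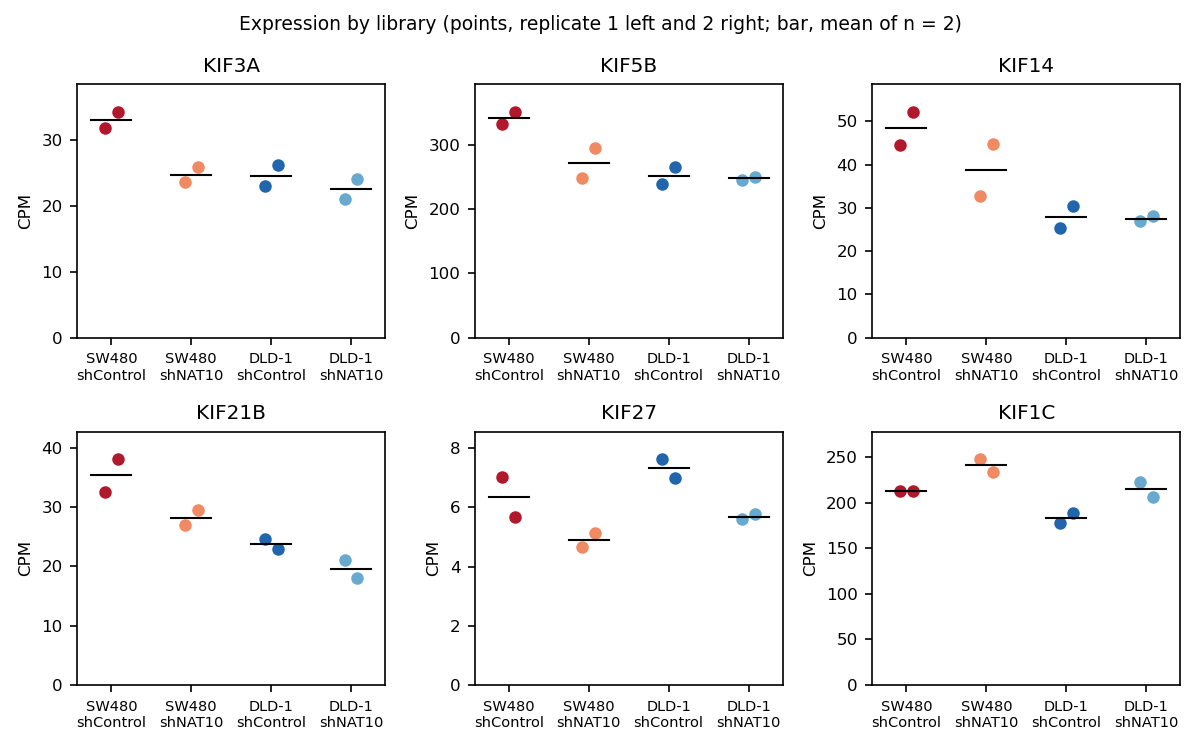
CPM in each library (vertical axis, from 0) of KIF3A, KIF5B, KIF14, KIF21B, KIF27 and KIF1C in the 4 groups, with a point per library and a bar at the mean of n = 2. KIF21B and KIF27 are lower and KIF1C is higher in shNAT10 in both cell lines without overlap, while KIF3A and KIF5B are separated in SW480 only and overlap in DLD-1. KIF2A and KIF2C, which are not drawn, were also lower in both lines without overlap. The share of all genes separated in both lines was not counted.

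Taking the mean effect over both cell lines, 0 kinesins passed the adjusted threshold by edgeR, 1 did by DESeq2 and 0 by limma on FPKM, against 1.02% of all genes by edgeR, and 6 had an unadjusted p under 0.05, against 14.5% of all genes. By the limits KIF27, KIF21B and KIF3A were lower and 0 were higher, where 1.82% of all genes were lower and 1.3% higher. The count by the limits moved without SW480 shControl replicate 2, and no share over all genes is at hand for that fit. Without SW480 shNAT10 replicate 2, 8 kinesins passed the adjusted threshold, where 8.69% of all genes did. With the GC correction KIF21B, with a log2 fold change of -0.34 (adjusted p = 0.0358, edgeR, from 0.00615 to 0.383 over 18 alternatives), and KIF1C passed it, where 1.27% of all genes did. The kinesin that passed by DESeq2 was also KIF1C.

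KIF1C, a fast transport motor of vesicles and integrins, was the kinesin whose 2 shNAT10 libraries lay above both controls in each cell line. Of all genes 21.7% lay above in SW480 and 17.7% in DLD-1, and the share above in both was not counted. The pattern is therefore no result about KIF1C alone. It read 213 and 213 CPM against 248 and 234 CPM in SW480, and 178 and 188 CPM against 223 and 206 CPM in DLD-1. The log2 fold changes were 0.18 (standard error 0.0659) and 0.23 (standard error 0.0664), and 0.20 over both (standard error 0.0468, adjusted p = 0.0560, edgeR). Its fold changes of 1.13 and 1.17 stayed under the limit of 1.2. When curated transcripts alone were counted, the SW480 value turned to -0.04. The curated NM_006612.6 was assigned 23.9% of KIF1C counts in SW480 shControl and 20.5% in SW480 shNAT10.

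The SW480 effect minus the DLD-1 effect was below 0 for 29 of 35 kinesins, against 52.1% of all genes, and 0 passed the adjusted threshold by edgeR, by DESeq2 or by limma on FPKM, where 0.00734% of all genes did by edgeR. The 29 include KIF5A, KIF6 and KIF12, with 0 counts in both DLD-1 controls, and KIF1A, with 3 and 4. Their DLD-1 effects, and so their differences, are hardly defined. The SW480 effects depended on single libraries, as given above. An unadjusted p under 0.05 was given by 3 of 35 kinesins, against 9.38% of all genes. These were KIF5B with a difference of -0.30 (standard error 0.115, adjusted p = 0.489, edgeR), KIF1B with -0.28 (standard error 0.128) and KIF26A with 0.54 (standard error 0.235). The fit without SW480 shNAT10 replicate 2 leaves 1 library in that group, so its calls of a difference are not given. The knockdown effects on kinesins were thus not shown to differ between the lines. Their KIF14 difference was -0.30 (standard error 0.188) and that of KIF3A -0.30 (standard error 0.144).

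A partial match of the hairpin to other transcripts was looked at for the kinesins named above, since the labels do not tell which of 2 hairpins was sequenced. The 2 target sequences of the study are given with the stretch that pairs with bases 2 to 8 of the hairpin's guide strand in capitals.
shNAT10-1: ggccaaagctgTCTTGAAa
shNAT10-2: cagtgacgaccTAGATGAa
In the 3'UTR of its longest coding transcript, KIF3A held the first stretch at 2 places and the second at 1, and KIF21B the first at 1. KIF5B, KIF14 and KIF27 held neither. The windows that hold them are given here in the direction of the transcript (GENCODE 29, GRCh38), with the stretch in capitals and the position counted from the first base after the stop codon.
KIF3A, shNAT10-1, position 702: gtttcatgttcTCTTGAAacattgaattg
KIF3A, shNAT10-1, position 2429: gcccgggcctgTCTTGAActcctagagct
KIF3A, shNAT10-2, position 3096: gtgagacgataTAGATGAacacacttgct
KIF21B, shNAT10-1, position 4338: agcactcatgaTCTTGAAgcccctatcac

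Such stretches are common. TCTTGAA stood in the 3'UTR of 20.1% of 13023 tested genes and of 8 of 35 kinesins, and TAGATGA in 10.2% and 4 of 35. KIF1C, which was higher in value, was among the 8. Over its longest coding transcript KIF3A shared a run of 11 bases with the shNAT10-1 target, the longest of any tested kinesin with either hairpin. The share of all genes with such a run was not counted. Whether these stretches bear on the levels was not tested.

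In control cells the 2 lines differed in most kinesins, as they did in most genes. Of 35 kinesins, 28 passed the adjusted threshold by edgeR, 18 higher and 10 lower in SW480, where 73.8% of all genes passed. The same number passed by DESeq2. KIF1A, KIF5A, KIF6 and KIF12 are among the 18 and passed the filter on low counts only through their SW480 libraries. Their direction was thus fixed by the filter. KIF1A and KIF5A are also among the 10 transport kinesins counted as higher below, and they enter the transport median and sums given there. The transport class was higher in SW480 for 10 and lower for 3 of 16, with a median log2 difference of 0.43, and the mitotic class was higher for 3 and lower for 5 of 10, with a median of -0.18. With the GC correction these medians were 0.06 and -0.29. The summed level of the transport class was 1143 and 1198 CPM in SW480 and 937 and 999 CPM in DLD-1 shControl, and that of the mitotic class 877 and 866 against 951 and 962 CPM. Neither sum overlapped between the lines, and no other sets of genes were summed for comparison. Abundant members weigh most in such sums. Mean shControl levels in SW480 and DLD-1 were 342 and 252 CPM for KIF5B and 43.2 and 0.206 CPM for KIF1A. KIF1B went the other way, at 83.1 and 116 CPM.

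The widest gaps were in motors that DLD-1 hardly contained. KIF1A, the motor of synaptic vesicle precursors, read 40.3 and 46.1 CPM in SW480 shControl and 0.176 and 0.237 CPM, from 3 and 4 counts, in DLD-1 shControl. The log2 difference was 7.66 (standard error 0.200), a 209-fold ratio of the means (chr2:240713767-240821403). Since the filter fixed its direction, no p-value is given for it. KIF5A, the neuronal heavy chain of conventional kinesin, read 1.52 and 0.820 CPM in SW480 and had 0 counts in both DLD-1 controls. Against a floor of 3 counts over the DLD-1 group it was at least 13.2-fold higher in SW480. KIF12 and KIF6, a motor of motile cilia, had 0 counts there too and were at least 17.9-fold and 13.9-fold higher, from 1.88 and 1.29 CPM and 1.41 and 1.05 CPM in SW480. In SW480 shNAT10 these motors stayed low, at 0.764 and 0.994 CPM for KIF5A, 2.12 and 1.64 CPM for KIF12 and 1.0 and 1.23 CPM for KIF6, and in DLD-1 shNAT10 each had at most 1 count in a library. KIF26B, an atypical kinesin of cell adhesion and migration, read 6.56 and 7.43 CPM against 0.117 and 0.770 CPM, a log2 difference of 3.96 (standard error 0.355). The DLD-1 controls held 2 and 13 counts, and the difference was 3.17 without DLD-1 shControl replicate 1 and 5.81 without replicate 2. It read 7.29 and 7.78 CPM in SW480 shNAT10 and 0.825 and 0.460 CPM in DLD-1 shNAT10.

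Beside KIF1A and KIF5A, the neuronal markers RBFOX3, SYN1 and SNAP25 summed to between 7.44 and 9.25 CPM in SW480 shControl and between 0 and 0.0587 CPM in DLD-1 shControl, where SYN1 and SNAP25 were at 0. Their part in the difference was not tested. NAT10 lowering left KIF1A at 40.8 and 41.2 CPM in SW480 shNAT10 and at 0.236 and 0.263 CPM in DLD-1 shNAT10.

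Other members higher in SW480 controls were KIF7, the Hedgehog motor of the ciliary tip, at 12.4 and 14.0 against 2.0 and 2.9 CPM, and KIF26A at 13.9 and 14.0 against 4.11 and 5.33 CPM. Among mitotic motors KIF4A was higher, at 144 and 139 against 73.8 and 74.6 CPM, and so was KIF14, at 44.6 and 52.2 against 25.3 and 30.5 CPM. The log2 differences of these last 2 were 0.93 and 0.80. KIF3A and its partners KIF3B and KIF3C were higher by 0.43, 0.53 and 0.63. With curated transcripts alone the KIF14 difference turned to -0.71, and with the GC correction that of KIF3C was 0.16, with the length correction that of KIF3A 0.15, none of them called. The curated KIF14 transcript NM_014875.3 was assigned 0 and 350 counts in the DLD-1 shControl libraries, so its division of reads was unstable.

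Lower in SW480 were KIFC2, a minus-end directed transport motor, at 14.5 and 14.1 against 39.4 and 37.6 CPM (log2 difference -1.43, standard error 0.103, adjusted p = 1.1e-08, edgeR), and KIF18B, a plus-end motor of astral microtubules, at 28.9 and 31.2 against 57.5 and 60.2 CPM (-0.97, standard error 0.0815). KIF22 was lower at 97.2 and 92.3 against 149 and 149 CPM, and KIF11 at 124 and 121 against 187 and 188 CPM. KIFC1, a minus-end motor that gathers spindle poles, read 72.4 and 71.1 against 104 and 101 CPM. The log2 differences of these 3 were -0.65, -0.61 and -0.51. With curated transcripts alone KIFC1 was at -0.09 and not called. After NAT10 lowering KIFC2 read 15.6 and 13.7 CPM in SW480 and 43.3 and 37.4 CPM in DLD-1, KIF18B 28.8 and 26.6 against 58.8 and 54.3 CPM, and KIFC1 77.9 and 70.8 against 106 and 108 CPM, so the order of the lines was kept in each. KIF2C was at -0.12 and not called with the GC correction. In the fit with all libraries, mitotic kinesins stood on both sides, with KIF2C, KIF4A and KIF14 higher and KIF11, KIF18B, KIF20B, KIF22 and KIFC1 lower in SW480.

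**Figure D4:**
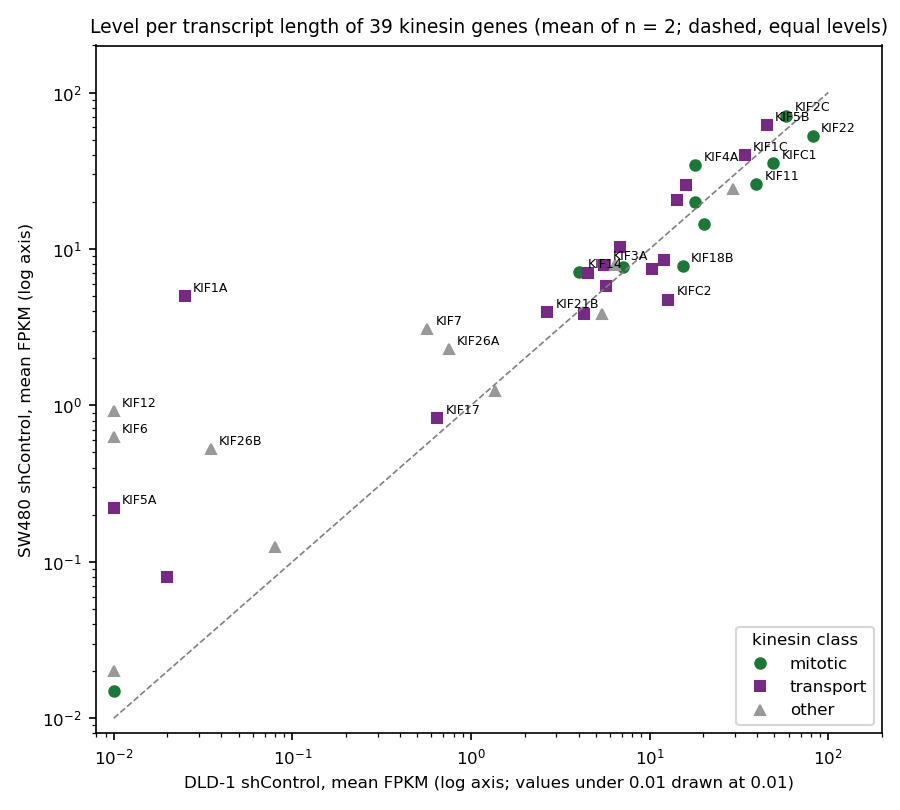
Mean FPKM of 2 shControl libraries in SW480 (vertical axis) against DLD-1 (horizontal axis), both on log axes, for the 39 kinesin genes, green circles for mitotic, purple squares for transport and grey triangles for other kinesins. Points above the dashed line of equal levels are higher in SW480, and KIF1A, KIF5A, KIF6, KIF12 and KIF26B lie farthest from it.

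Per transcript length (deposited FPKM summed over transcripts), KIF2C was the highest kinesin in SW480 controls at 73.6 and 69.1 FPKM, followed by KIF5B at 59.5 and 63.9 FPKM and KIF22 at 53.7 and 51.4 FPKM. These 3 did not overlap. In DLD-1 controls KIF22 was the highest at 81.4 and 82.0 FPKM, before KIF2C at 58.2 and 58.4 FPKM. KIF1C and KIFC1 came next in SW480, at 39.7 and 40.2 FPKM and at 35.8 and 34.9 FPKM, and KIF4A at 35.0 and 34.2 FPKM overlapped with KIFC1. The levels reached down to 0.28 and 0.16 FPKM for KIF5A among tested kinesins in SW480.

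The remaining members showed no call in the knockdown comparisons with edgeR on all 8 libraries. Of those named next, KIF2A, KIF13A, KIF13B and KIF20B passed the adjusted threshold in SW480 without shNAT10 replicate 2. In the mitotic class these were KIF15, which can stand in for KIF11, KIF18A, which dampens chromosome movement, and KIF20B, a motor of cytokinesis, with SW480 log2 fold changes of -0.06, -0.12 and -0.16. In the transport class, KIF13A and KIF13B, motors of endosomal and plus-end cargo, had values of -0.15 and -0.18, KIF16B, a motor of early endosomes, -0.13, and KIF21A, the relative of KIF21B, -0.10. KIF17, the homodimeric kinesin-2, and KIFC3, a minus-end motor of epithelial junctions, had 0.03 and 0.05. KIF2A, a depolymerase of spindle poles and axons, had -0.15, KIF24 -0.18 and KIF9, a ciliary motor, 0.32. Of the 4 members below the filter, KIF5C reached 11 counts in a library, KIF25 5, KIF19 2 and KIF4B 3. KIF4B is a near-identical copy of KIF4A without introns, so the division of reads between them is uncertain.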

How the data were processed

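Estimated counts per RefSeq transcript and FPKM per library were deposited by the authors. BGI processed single-end reads of poly(A) RNA, and the submitters' processing notes name HISAT2 2.0.4, Bowtie2 2.2.5, RSEM 1.2.12 and hg38 without roles. The deposited FPKM values of SW480 shNAT10 replicate 2 stop early, leaving 14655 transcripts without a value. The authors' mean and comparison columns were not used. Counts per gene had been foreseen, so transcript counts were summed per gene, which keeps reads divided among transcripts together, and were rounded. Gene symbols matched 99.3% of identifiers.

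Genes were filtered with filterByExpr (minimum count 10, total 15), scaled by TMM and tested in a single model of 4 groups by edgeR 4.0.16 (quasi-likelihood, R 4.3.3), with Benjamini-Hochberg adjustment over all 13619 genes. Standard errors were obtained from the F statistic and the fitted log2 fold change. The study names no RNA-seq test. Its limits were a second call rule. Lists were described by counts and medians, without a test. Fold floors used 3 counts over the group and, like all count limits, cover counting error only. GC content and length came from the longest GENCODE 29 transcript per symbol. On simulated counts of 13619 genes for SW480, 88% of the genes given a log2 fold change of 1 and 57% of those given 0.5 were called, and 8.23% of calls were false. The simulated noise was independent between genes, with no relation to GC content and no outlying library. These rates therefore need not hold for the real libraries. The alternatives were DESeq2 1.42.0, limma 3.58.1 on log2(FPKM + 1) and log2(FPKM + 0.1), upper-quartile scaling, other filters, each line alone, a replicate block, corrections for GC content and length (loess, span 0.5), curated transcripts, other class rules and leaving out each library. Python 3.11.15 with pandas 2.3.3 was used for the rest.

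Members and lists were chosen with earlier results of these data known. Values in every library were given for members past a call rule in a knockdown comparison, for the 4 mitotic and 4 transport kinesins with the highest mean CPM, and for the 5 largest line differences each way. KIF1C, KIF26A, KIF7 and others were named in addition after their values were seen.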

Additional observations from a re-analysis of the deposited data

Results flagged for a closer look

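The knockdown of NAT10 itself differed between the cell lines. Its log2 fold change was -2.25 in SW480 and -1.09 in DLD-1, and the difference of -1.16 passed the interaction test (standard error 0.118, adjusted p = 0.0015, edgeR). The kinesin values of the 2 lines were thus taken at unequal remaining NAT10 levels.

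KIF26A lay on opposite sides of its controls in the 2 lines, with both SW480 shNAT10 libraries above both controls (17.3 and 14.4 against 13.9 and 14.0 CPM) and both DLD-1 shNAT10 libraries below (4.06 and 3.28 against 4.11 and 5.33 CPM). The difference of the log2 fold changes was 0.54 (standard error 0.235) and did not pass the interaction test after adjustment (adjusted p = 0.506, edgeR).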

How the results depend on the processing

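Of the recomputed summary values that leave out no library, 139 moved by less than the replicate spread or 1.5 times in count and 46 moved by more. Deviations of same-numbered libraries had a correlation across genes of 0.0866 in SW480 and -0.0034 in DLD-1. With 2 libraries a group, this cannot settle whether the replicate numbers mark pairs. With the replicate block, 4 kinesins passed the adjusted threshold in SW480 and 4 over both lines, where 10.8% and 5.04% of all genes did, and the line medians were -0.21 (mitotic) and 0.40 (transport). In SW480, 0 kinesins passed the adjusted threshold with upper-quartile scaling, without a filter on low counts, with each line fitted alone, with curated transcripts, with the GC correction and on either FPKM scale, and 3 did with the length correction. With the GC correction 2.5% of all genes passed. For the other settings named here, and for the counts past the limits below, no share over all genes is at hand. Those counts are therefore no result about kinesins alone. Counts past the limits in SW480 were 3 with curated transcripts, 2 with the GC correction, 3 with the length correction and 11 on either FPKM scale. In DLD-1 they were 1 with curated transcripts and 0 by DESeq2 and on either FPKM scale. Over both lines the adjusted threshold was passed by 2 kinesins with the GC correction, 1 with the length correction and 1 by DESeq2, and the limits by 1 with the length correction and 1 on log2(FPKM + 1). With the GC correction 1.27% of all genes passed the adjusted threshold over both lines. The FPKM fits lack SW480 shNAT10 replicate 2 for 24 of the 35 kinesins, so that group rests there on 1 library, assumed to vary like the others. With adjusted p under 0.10 the counts were 2 in SW480 and 3 over both.

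Mitotic medians in SW480 were -0.053 (GC) and -0.078 (length), and over both lines -0.0074 (curated) and -0.0091 (GC). Transport medians in SW480 were -0.059 (curated), -0.056 (length), -0.19 on log2(FPKM + 1) and -0.27 on log2(FPKM + 0.1), and over both lines -0.046 (length) and -0.14 on log2(FPKM + 0.1). Between the lines the mitotic median was -0.29 (curated), -0.29 (GC), -0.47 (length) and -0.34 with KIF2A and KIF24 counted as mitotic, and the transport median 0.057 (GC), 0.16 (length), 0.36 on log2(FPKM + 1) and 0.48 on log2(FPKM + 0.1). The cause was not tested.

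With each library left out in turn, counts at the adjusted threshold ran from 0 to 12 in SW480, 0 to 8 over both and 0 to 1 for the difference, and counts past the limits from 1 to 12 in SW480, 1 to 4 in DLD-1 and 1 to 4 over both. Each of these fits leaves 1 library in a group. Among the fits without an SW480 library, the share of all genes at the adjusted threshold moved too. It was highest without SW480 shNAT10 replicate 2, both in SW480 and over both lines, where the kinesin counts were also highest. For the difference and for the limits no share over all genes is at hand. The ranges of counts are therefore no result about kinesins alone. Mitotic medians lay between -0.21 and -0.043 in SW480 and between -0.10 and -0.028 over both. Transport medians lay between -0.26 and -0.064, between -0.14 and -0.032 and, between the lines, between 0.36 and 0.51.

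Single genes changed sign as follows. With curated transcripts KIF14 was at 0.86 in SW480, 0.040 in DLD-1 and 0.45 over both, and KIF1C at -0.042 in SW480. With the GC correction KIF14, KIF22 and KIF5B in DLD-1 were at 0.027, -0.013 and 0.020. KIF4A was at -0.0010 in DLD-1 with upper-quartile scaling, and KIF3B at -0.00 with the length correction. With a library left out, DLD-1 values ran from -0.0076 to 0.027 for KIF11, -0.15 to 0.12 for KIF14, -0.030 to 0.19 for KIF1B, -0.034 to 0.045 for KIF22, -0.031 to 0.049 for KIF3B, -0.033 to 0.042 for KIF4A and -0.097 to 0.050 for KIF5B. DESeq2 gave no adjusted p for KIF3A in SW480 among others, which were left out.

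On simulated SW480 counts with 2 libraries per group, 57% of the genes given a log2 fold change of 0.5 were called. Smaller changes, the size of most kinesin values, were not simulated, and neither was a relation of the values to GC content.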

Other observations

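Partners of the kinesins were described by lists. In SW480 shNAT10 cells 0 of 24 cofactors and cargo adaptors of kinesins passed the adjusted threshold by edgeR or the limits, and their median log2 fold change was -0.05. The 32 mitotic regulators and spindle partners had a median of -0.07, with 21 below 0, and 1 of them passed the limits, named here after its value was seen: ASPM, a spindle pole protein (log2 fold change -0.32, standard error 0.129). The 14 replication genes had a median of 0.10 with 3 below 0, and 1 passed the limits upwards, GINS2, a subunit of the replicative helicase (0.32, standard error 0.0960, also named after its value was seen). The 17 genes of dynein and dynactin, the motor that walks the other way, had a median of 0.00. In SW480, an unadjusted p under 0.05 was given by edgeR for 6, 6, 6 and 4 members of these lists, against 19.3% of all genes. In DLD-1 the medians were 0.00, 0.01, 0.04 and 0.01 in the same order, and 0 members passed the limits or had an unadjusted p under 0.05 by edgeR. No member of the 4 lists passed the adjusted threshold in either line or over both.

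The counts of KIF3A were divided among 4 transcripts. The estimate for NM_001300792.2 was 176 and 175 counts in SW480 shControl and 15.4 and 29.1 counts in SW480 shNAT10, which is 31.1% and 5.3% of the gene's counts. The estimate for NM_007054.7 was 213 and 258 counts against 316 and 268 counts. In DLD-1 the first transcript had 0 counts in both controls, and 54.6 and 0 counts in shNAT10. These divisions between transcripts are estimates from 50-base single-end reads and were not tested.

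In KIF1A the counts of SW480 and of DLD-1 fell on different transcripts. In SW480 shControl NM_004321.7 held 79.4% of the counts, and in DLD-1 all of the 3 and 4 control counts were assigned to NM_001320705.2, which had 0 counts in SW480.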
